A study of Xenopus laevis with 12 samples.

Results

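In the brains of Xenopus laevis tadpoles, RNA levels were searched for genes that were lower after both of the exposures studied, the amniotic mixture, made up of chemicals detected in the amniotic fluid of pregnant women, and the thyroid hormone thyroxine (T4). Of 51041 genes listed, 20971 had a mean control level of at least 5 CPM (the reads of a gene scaled by all reads counted on genes in that sample), and 138 of these (0.658%) were lowered by both. The 138 genes were selected on the same 12 samples that are described here. Each had a difference from the control of at most −0.3 after the mixture and after T4, on the scale of the mean log2(CPM + 0.5), and its 4 mixture samples and 4 T4 samples all lay below its 4 control samples. The mirror of this selection, with all exposed samples above all control samples and both differences at least 0.3, gave 13 genes. The lower position of both exposed groups is thus what the members were chosen by, and it is given below as a description. Both differences use the same 4 control samples, so a gene with high values in these tends to meet both conditions. The number of genes that would pass without any effect of the exposures was not estimated.

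Each group held 4 samples, with 2 brains pooled per sample. Brains were taken at stage NF 47, and exposure had lasted 8 days, starting with the fertilised egg. The mixture group received the amniotic mixture at 1x, the concentrations reported for amniotic fluid, and the T4 group received 10 nM T4. The control group, like both others, received the solvent DMSO. The mixture holds phenols, phthalates, organochlorine pesticides, perfluorinated compounds, a polychlorinated biphenyl, a brominated flame retardant, perchlorate, 2-naphthol, methyl mercury and lead. The samples came from 2 breedings, so that samples of the same breeding may share parents, and p-values measure only the spread between these samples.

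T4 is a prohormone that deiodinase enzymes convert into T3, the form with the higher affinity for the nuclear thyroid hormone receptors. With T3 bound, these receptors activate some target genes, and other genes, among them those of the pituitary feedback loop, are repressed. In amphibians the same hormones drive metamorphosis, and in the developing brain they act on the division and maturation of neural cells. Several classes of chemicals in the mixture are known or suspected to interfere with thyroid hormone production, transport or signalling.

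The files name genes by number only, and 0 of the 51041 numbers were matched to a name in the RefSeq table used here. Symbols, genome positions, functions and sequences of the members are therefore not given, and neither gene lists nor markers of brain cell types could be examined. The genome of X. laevis is duplicated, with most genes present as homeologs of similar sequence. Reads that fit both homeologs were not counted, so the level of a member with a close homeolog is uncertain. Levels are compared between samples for each gene, not between genes, because gene lengths are not known here. Whole brains were sequenced, and a lower level from fewer cells of a type cannot be told apart from less RNA per cell.

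Between 10420292 and 11685566 reads were counted on genes in each sample, and no group stood apart in depth. The T4 group did stand apart in reads that aligned outside any gene. These made up 13.9% to 14.8% of all reads in the T4 samples, against 15.3% to 16.2% in the mixture samples and 15.4% to 16.1% in the control samples. Reads that did not align made up 24.9% in T4 sample 10 and 24.7% in T4 sample 12, against 20.3% to 22.4% in the other samples. Whether either difference bears on the members was not tested. On component 2 of a PCA, the samples fell into 2 sets, each with 2 samples of every group. Samples 5, 6, 9, 10, 1 and 2 formed the first set and samples 7, 8, 11, 12, 3 and 4 the second. The study describes experiments at 2 time points, but the labels do not assign samples to them. A further difference runs with the control group: the names under which the control counts were deposited show a 5′ trimming step repeated, which the names of the mixture and T4 counts do not. The TMM factors, which scale libraries by the bulk of their genes, were 0.982 to 1.004 in the mixture samples and 0.973 to 0.998 in the T4 samples, against 1.007 to 1.025 in the control samples. The control factors were thus above every exposed one. With TMM-scaled CPM the same selection gave 93 lowered genes, all of them among the 138, and 19 raised genes. Whether the step was run again or only named again is not known. If it was run again, the trimming and the exposure cannot be told apart where both exposed groups are set against the control.

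Over the 138 members, the median difference from the control was −0.44 after the mixture (−1.30 to −0.30) and −0.55 after T4 (−1.499 to −0.30). Over the 20971 expressed genes the medians were −0.02 and −0.04. Most members changed moderately. After the mixture 7 members reached a difference of −1 or lower, after T4 8 did, and 2 did after both, gene9490 and gene16239. A difference of −0.5 or lower after both exposures was found in 36 members. Summed over the members, the level was 2278 ± 76.1 CPM in the mixture group and 2094 ± 87.1 CPM in the T4 group, against 3121 ± 50.3 CPM in the control group (SD, n = 4 samples each). As part of the selection, these sums do not overlap between exposed and control samples. The mixture sums, from 2192 to 2364 CPM, also lay above the T4 sums, from 1972 to 2179 CPM. Abundant members weigh most in these sums. By gene, the difference from the control was lower after T4 in 91 members and lower after the mixture in 47. The mixture minus T4 difference had a median of 0.08 over the members and −0.002 over the expressed genes. Over the expressed genes, T4 differences were also wider (quartiles −0.21 and 0.15) than mixture differences (−0.15 and 0.08). With both cut at −0.3, a wider spread favours T4 as the lower exposure. Whether the split goes beyond this was not tested.

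The deepest combined decrease was that of gene9490, which had 5.18, 4.08, 3.90 and 4.79 CPM in the mixture samples and 6.22, 6.03, 3.54 and 3.81 CPM in the T4 samples, against 10.3, 10.3, 15.1 and 9.21 CPM in the control samples. All mixture and T4 samples lay well under the lowest control sample, and control sample 3 stood above the other controls. Its difference was −1.22 after the mixture and −1.13 after T4. For gene16239 the levels were 2.30, 1.95, 2.41 and 2.14 CPM in the mixture samples and 2.61, 1.88, 2.504 and 1.86 CPM in the T4 samples, against 4.15, 3.49, 8.27 and 5.08 CPM in the control samples. Here the 8 exposed samples lay close together at a low level, and again control sample 3 was the highest. The differences were −1.03 after the mixture and −1.03 after T4.

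The means of gene16239 were alike, at 2.201 CPM after the mixture and 2.216 CPM after T4. The mean was lower after the mixture than after T4 in gene9490, and also in gene18690, gene48772, gene5865 and gene4010. In gene18690 the levels were 4.80, 2.23, 4.92 and 3.77 CPM in the mixture samples and 8.20, 6.97, 5.53 and 2.48 CPM in the T4 samples, against 8.39, 10.6, 10.7 and 10.6 CPM in the control samples. The T4 samples of this gene spread widely, and the highest of them was close to the lowest control sample. In gene48772 they were 3.17, 5.01, 4.27 and 3.00 CPM in the mixture samples and 3.25, 4.80, 5.35 and 5.23 CPM in the T4 samples, against 8.21, 6.89, 11.7 and 7.80 CPM in the control samples. Both exposed groups of this gene spanned a similar range. In gene5865 the levels were 3.65, 2.97, 2.51 and 5.13 CPM in the mixture samples and 5.05, 4.24, 3.63 and 4.43 CPM in the T4 samples, against 6.59, 7.44, 8.18 and 9.49 CPM in the control samples. In gene4010 they were 5.85, 3.99, 4.74 and 2.48 CPM in the mixture samples and 6.04, 4.33, 3.45 and 5.67 CPM in the T4 samples, against 10.5, 9.00, 7.42 and 8.27 CPM in the control samples. In each of these last 4 genes the mixture and T4 samples overlapped, and none was called different between the exposures.

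Apart from gene36734, described further on, the remaining members with the lowest sum of both differences were low after T4 in particular or about equally low after both. In gene3653 the levels were 5.57, 4.54, 5.29 and 3.42 CPM in the mixture samples and 5.50, 4.71, 2.68 and 0.266 CPM in the T4 samples, against 7.31, 8.54, 9.51 and 5.92 CPM in the control samples. T4 sample 12 held 3 reads of this gene, at the floor of 3 counts that was set for a measurable level, so its T4 difference of −1.47 rests in part on that sample. In the first set on component 2, the differences of gene3653 were −0.60 after the mixture and −0.59 after T4. Its log2 fold change of the mixture over T4 was 0.51, not called, and 0.12 without T4 sample 12. In gene39362, with 5.47, 5.84, 4.46 and 4.36 CPM in the mixture samples and 6.04, 3.96, 4.49 and 5.05 CPM in the T4 samples, against 12.7, 11.7, 7.99 and 7.43 CPM in the control samples, the exposed groups were alike, and the control samples split by set. In gene11670 the levels were 13.1, 8.81, 11.0 and 11.3 CPM in the mixture samples and 6.76, 6.97, 7.68 and 8.34 CPM in the T4 samples, against 14.3, 13.1, 19.9 and 20.7 CPM in the control samples. Mixture sample 5 lay just under control sample 2 in this gene, while all T4 samples lay lower.

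**Figure D1:**
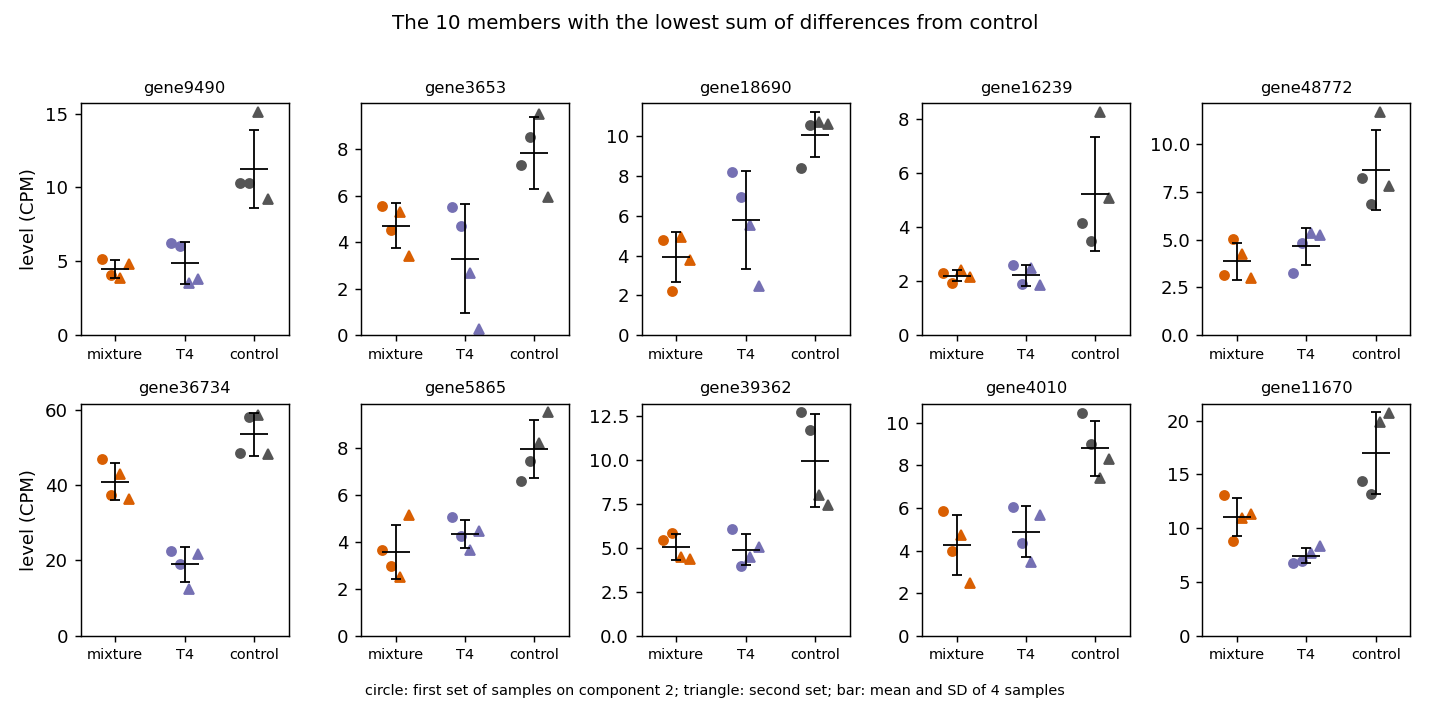
Level in CPM (vertical axis, from 0) of the 10 members with the lowest sum of both differences from the control, in the 4 mixture, 4 T4 and 4 control samples. Points are samples, with circles for the first and triangles for the second set on component 2, and bars give the mean and SD. In each gene all 8 exposed samples lie below the 4 control samples, as the selection requires, and in gene36734 the T4 samples (12.4 to 22.5 CPM) lie far under the mixture samples (36.4 to 47.02 CPM).

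The 6 members with the highest control level differed in their spread. In gene19225, the most abundant in CPM, the levels were 61.6, 68.0, 64.3 and 57.7 CPM in the mixture samples and 60.2, 64.2, 54.2 and 59.7 CPM in the T4 samples, against 79.6, 76.3, 78.5 and 79.8 CPM in the control samples. In gene36962 they were 47.5, 42.4, 47.4 and 43.9 CPM in the mixture samples and 43.4, 47.01, 43.3 and 45.0 CPM in the T4 samples, against 56.1, 62.2, 58.9 and 62.3 CPM in the control samples. The mixture and T4 samples of both genes overlapped and were clear of the control, with differences of −0.32 and −0.40 for gene19225 and −0.40 and −0.42 for gene36962. In gene2816 the levels were 50.8, 53.6, 42.7 and 47.1 CPM in the mixture samples and 57.0, 52.9, 44.9 and 46.9 CPM in the T4 samples, against 71.7, 73.1, 65.4 and 61.3 CPM in the control samples. In gene42738, with 49.2, 50.8, 34.8 and 33.3 CPM in the mixture samples and 51.0, 52.4, 38.5 and 50.9 CPM in the T4 samples, against 60.2, 62.9, 54.0 and 59.3 CPM in the control samples, the samples of the second set had the lowest mixture values and T4 sample 11 was low as well. In this gene the T4 difference of −0.30 was just inside the limit. In gene47955 the levels were 36.4, 65.6, 56.7 and 51.5 CPM in the mixture samples and 38.0, 37.4, 37.3 and 46.5 CPM in the T4 samples, against 67.5, 80.01, 71.4 and 66.6 CPM in the control samples, and mixture sample 6 nearly reached the lowest control sample. In gene39709 they were 49.8, 48.8, 42.1 and 49.6 CPM in the mixture samples and 37.3, 38.1, 33.5 and 33.1 CPM in the T4 samples, against 54.8, 57.4, 66.7 and 60.3 CPM in the control samples, so that the T4 samples lay below all mixture samples.

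The members were not spread over the range of levels as the expressed genes were. Of the expressed genes, 3136 had a control level of 80 CPM or more, and 0 of them were members. The highest control mean among members was 78.6 CPM and the median 15.0 CPM, against 31.3 CPM over the expressed genes. Per 100 expressed genes, there were 1.07 members at 5 to 10 CPM, 1.26 at 10 to 20 CPM, 0.591 at 20 to 40 CPM and 0.417 at 40 to 80 CPM. The part of the selection that concerns the mixture was met by 953 genes, 4.54% of the expressed genes, and the part that concerns T4 by 1807, 8.62%. Genes that met the mixture part were rarer at high levels: 5.75 per 100 at 5 to 10 CPM, 8.07 at 10 to 20, 6.00 at 20 to 40, 2.31 at 40 to 80, and 0.0638 (2 genes) at 80 CPM or more. For T4 the same count was 9.59, 9.48, 8.30, 7.98 and 8.16 per 100 genes, nearly level over the range. The lack of members among genes of 80 CPM or more thus ran with the mixture part. The selection set the level only as a minimum, but it used the differences, so these shares are a description. Counting noise also weighs more at low levels, so a fixed limit is passed more easily there. How far this shaped the shares was not tested. The median mixture difference of the members was −0.57 at 5 to 10 CPM and −0.39 at 40 to 80 CPM. Their median T4 difference also shrank, from −0.64 to −0.47.

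**Figure D2:**
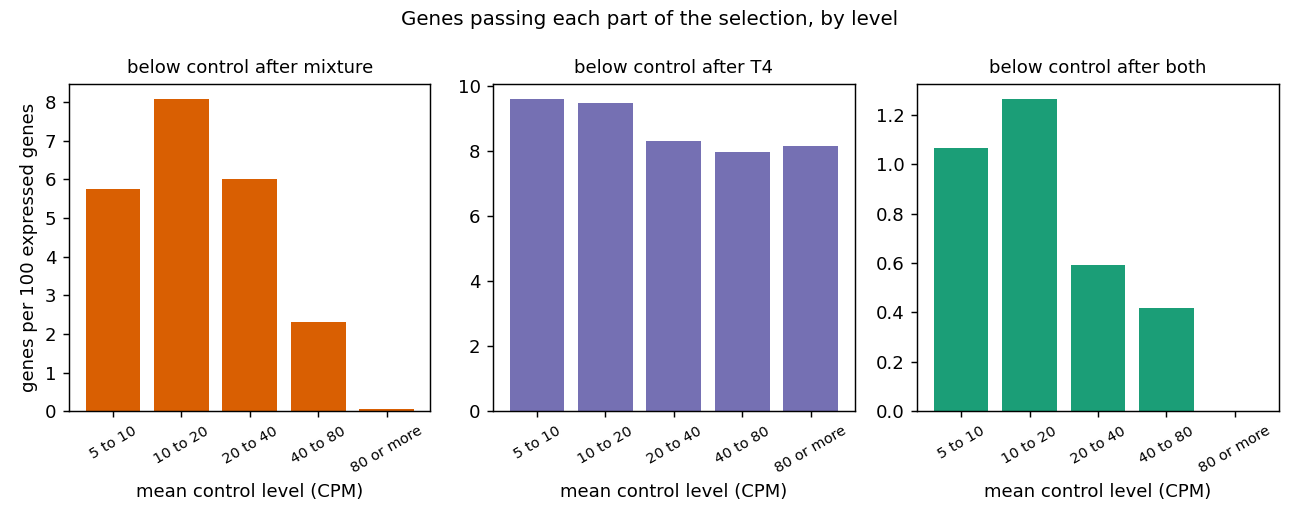
Genes per 100 expressed genes (vertical axes, each from 0 and on its own scale) whose 4 mixture samples, 4 T4 samples or all 8 exposed samples lay below the 4 control samples with a difference of at most −0.3, by mean control level in CPM. The mixture bars fall to 0.0638 at 80 CPM or more, the T4 bars stay between 7.98 and 9.59, and the bars of the members are at 0 above 80 CPM.

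The members had similar median decreases in each set on component 2, but single members differed between the sets. The selection placed every exposed sample below every control sample, so a decrease in each set was fixed by it. The median mixture difference was −0.42 in the first set and −0.48 in the second, and the median T4 difference −0.52 and −0.57. In gene18690 the T4 difference was −0.30 in the first set and −1.40 in the second. In gene39362 it was −1.23 and −0.64. Relative to the mean of the 3 group means, the median deviation of the members was −0.06 in mixture samples 5 and 6 and −0.16 in samples 7 and 8, −0.14 and −0.21 in T4 samples 9 and 10 and −0.27 and −0.21 in samples 11 and 12, and in the control samples 1 to 4 it was 0.37, 0.31, 0.36 and 0.33. The mixture samples of the second set were thus lower than those of the first, while T4 samples 10 and 12, of different sets, were at the same level. Over all expressed genes the same deviations lay between −0.02 and 0.03. Every control sample was the lowest of its group in some members: sample 1 in 29, sample 2 in 43, sample 3 in 21 and sample 4 in 45. The highest exposed sample was a mixture sample in 87 members and a T4 sample in 51. The gap between the lowest control and the highest exposed sample had a median of 0.10 (0.0012 to 0.53), so that many members met the condition narrowly.

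Near the limit of −0.3, the member gene42738 had its larger difference at −0.30006, gene40842 at −0.30014 (T4, with −0.32 after the mixture) and gene20149 at −0.30305 (mixture, with −0.77 after T4). Just outside it were gene20507, with −0.29965 after the mixture and −0.40 after T4, gene7959, with −0.43 and −0.29912, and gene12579, with −0.47 and −0.29835. In gene40842 the levels were 8.92, 8.25, 7.24 and 6.42 CPM in the mixture samples and 7.57, 6.59, 8.29 and 8.78 CPM in the T4 samples, against 9.21, 11.1, 8.94 and 9.59 CPM in the control samples, and the exposed and control samples nearly touched. In all, 382 expressed genes had every exposed sample below every control sample, and the limit on the differences kept 138 of them.

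To see the same measure in samples that had no part in the choice, the selection was repeated without each sample and read in the sample left out. Without 1 mixture sample, 149 to 158 genes were chosen. In 85.2% to 88.2% of them the left-out mixture sample lay below all 4 control samples, against 25.97% to 32.8% of all expressed genes. The median difference of the left-out sample from the control mean was −0.35, −0.36, −0.41 and −0.45 for mixture samples 5 to 8, while that of the samples kept was −0.42 to −0.45. Without 1 T4 sample, 146 to 167 genes were chosen, and the left-out sample lay below all control samples in 83.2% to 91.8% of them, against 30.9% to 34.2% of the expressed genes. Its median difference was −0.43, −0.55, −0.56 and −0.51 for T4 samples 9 to 12. The left-out exposed samples were thus low in most genes chosen without them. These genes were still chosen for high values in the same 4 control samples, so that the choice itself favours a low position of any further sample.

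The control samples were left out in the same way. Without control sample 1, 2, 3 or 4, 207, 225, 170 and 192 genes were chosen. The left-out control sample lay above all 8 exposed samples in 65.7%, 63.6%, 75.3% and 71.4% of these genes, against 14.5%, 13.3%, 13.9% and 12.5% of the expressed genes. Its median difference from the mean of the exposed samples was 0.41, 0.36, 0.46 and 0.37, smaller than the 0.51 to 0.52 of the control samples kept. In 92.3% to 95.3% of the chosen genes the left-out control sample was above the exposed mean, against 53.1% to 57.2% of the expressed genes. A control sample that did not take part in the choice was therefore high in most of the genes, but by less than those that did. These genes were still chosen for low values in the same 8 exposed samples. The choice itself thus favours a high position of any further sample. Here too, the other control sample of the same set stayed in the choice. The members number 138 with 4 control samples and 225 without control sample 2, over 1.5 times as many. Leaving out any sample loosens the condition that separates exposed from control samples. The count rose without each sample in turn, to between 146 and 225. Of those 225 genes, 133 were among the 138.

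**Figure D3:**
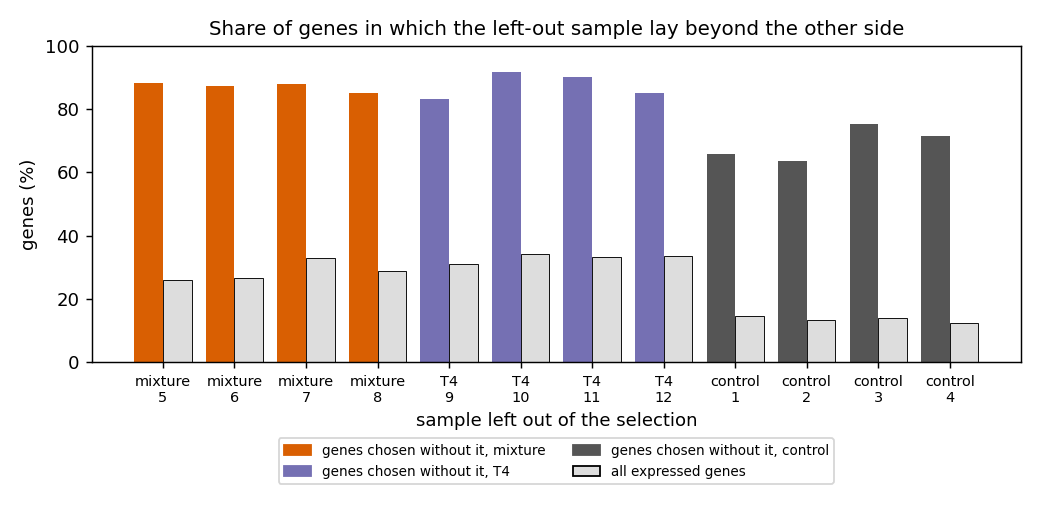
Share of genes (vertical axis, percent) in which the sample on the horizontal axis, left out of the selection, lay below all control samples (mixture and T4 samples) or above all exposed samples (control samples). Orange, purple and dark grey bars are the genes chosen without that sample and light grey bars all expressed genes: the filled bars reach 83.2% to 91.8% for exposed samples and 63.6% to 75.3% for control samples, and the light grey bars 12.5% to 34.2%.

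The 2 sets on component 2 share no samples, so that genes chosen in one were also read in the other. With the selection applied to the 6 samples of the first set, 548 genes were chosen, with a median mixture difference of −0.44 and T4 difference of −0.56 in that set. In the second set their median difference was −0.24 for the mixture and −0.35 for T4, against −0.03 and −0.02 over the expressed genes. The mixture difference was below 0 in 73.5% of them (54.8% of the expressed genes) and the T4 difference in 85.2% (52.2%). Chosen in the second set, 639 genes had medians of −0.48 and −0.56 there. In the first set these were −0.22 for the mixture and −0.28 for T4, against −0.03 and −0.04 over the expressed genes. The mixture difference was below 0 in 81.4% (57.2% of the expressed genes) and the T4 difference in 85.3% (56.2%). The decreases were thus smaller in the set that did not choose the genes, and larger there than over the expressed genes. The full selection was met in both sets by 128 genes, 23.4% of those chosen in the first set and 20.03% of those chosen in the second, where 2.65% and 2.199% of the expressed genes met it in the other set. Of these 128 genes, 78 were among the 138 members. The other 60 members did not meet the full selection in both sets. The sets were found from these counts, and both hold control samples with the repeated trimming step in their names.

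Genes chosen for a higher level after both exposures were read in the other set in the same way. In the first set 114 genes met the mirror of the selection, and in the second set their median difference was 0.08 for the mixture and 0.46 for T4. In the second set 296 genes met it, and in the first set their medians were 0.02 for the mixture and 0.09 for T4. The mirror of the selection was met in both sets by 9 genes, 7.89% of those chosen in the first set and 3.04% of those chosen in the second, where 1.40% and 0.528% of the expressed genes met it in the other set. The difference between the lowered and the raised genes was not tested.

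**Figure D4:**
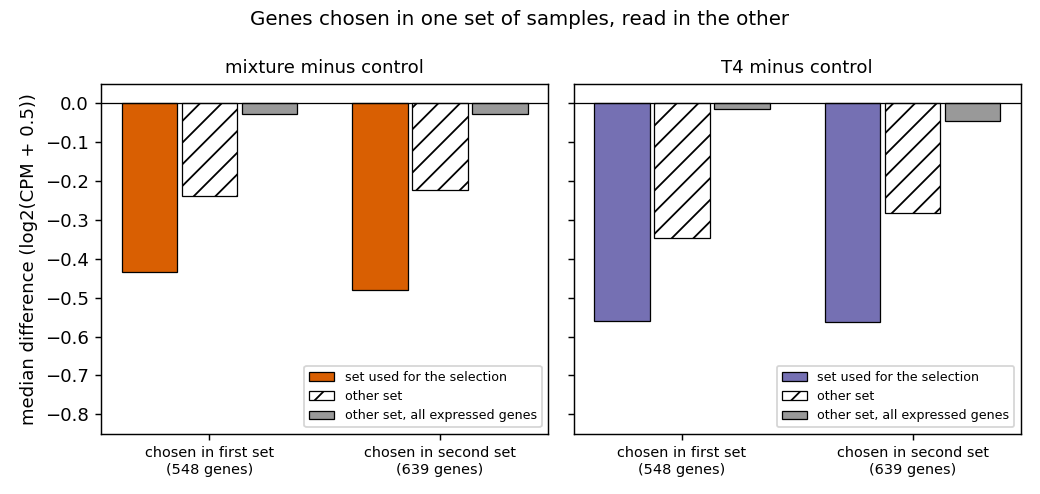
Median difference from the control, on the log2(CPM + 0.5) scale, of genes lowered by both exposures in 1 set of samples (548 genes in the first, 639 in the second). Solid bars give the set used for the selection, hatched bars the other set and grey bars all expressed genes in the other set: the hatched bars reach −0.24 and −0.22 for the mixture and −0.35 and −0.28 for T4, and the grey bars stay between −0.05 and 0.

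The exposures were then compared with each other, a contrast that the selection did not fix in direction, with edgeR's quasi-likelihood test and Benjamini-Hochberg adjustment over 27141 genes. All 138 members passed the filter on low counts, which is a consequence of their minimum level. After the mixture 20 members were higher than after T4 (14.5%, against 15.1% of all genes tested) and 4 were lower (2.90%, against 19.9%), with an adjusted p-value under 0.05. The first share is at the background. Both shares are limited by the selection, which removes genes raised by either exposure. Of the 953 genes that met the mixture part, 61.5% were called lower after the mixture than after T4 and 2.10% higher. Of the 1807 that met the T4 part, 73.0% were called higher and 0.221% lower. Those genes were chosen for low values in the same mixture or T4 samples, which favours these directions in advance. The same mixture and T4 samples chose the members, so that these p-values are not from independent samples. The other 114 members did not pass the threshold, which does not show that their levels were equal. Over the members, log2 fold changes of the mixture over T4 had a median of 0.07 (−0.61 to 1.10), and over all genes tested of 0.01. By rank alone, all T4 samples lay below all mixture samples in 19 members (13.8%, against 17.2% of the expressed genes), and all mixture samples below all T4 samples in 4 (2.90%, against 21.9%).

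Among the members higher after the mixture than after T4, gene36734 had 47.02, 37.4, 42.8 and 36.4 CPM in the mixture samples and 22.5, 19.1, 12.4 and 21.7 CPM in the T4 samples, against 48.6, 58.1, 58.6 and 48.3 CPM in the control samples. Mixture sample 5 lay just under the lowest control sample, the other mixture samples lay lower, and the T4 samples lay far below both groups. The log2 fold change of the mixture over T4 was 1.10 (standard error 0.16, adjusted p = 0.000148). In gene6531 the levels were 3.74, 4.64, 3.81 and 4.45 CPM in the mixture samples and 1.62, 2.17, 1.64 and 2.66 CPM in the T4 samples, against 4.87, 5.79, 5.80 and 5.08 CPM in the control samples, in the same order of groups, with a log2 fold change of 1.03 (standard error 0.20, adjusted p = 0.0015). In gene15447 the levels were 48.3, 41.2, 51.0 and 39.96 CPM in the mixture samples and 27.0, 25.5, 22.2 and 27.0 CPM in the T4 samples, against 55.2, 51.3, 60.3 and 55.5 CPM in the control samples, with a change of 0.82 (standard error 0.10, adjusted p = 3.99e-05) on the log2 scale. These 3 genes had mixture differences near the limit, at −0.38, −0.34 and −0.30, and T4 differences beyond −1. Of smaller size were gene19014 at 0.58 (standard error 0.13, adjusted p = 0.00309), gene15704 at 0.56 (standard error 0.12, adjusted p = 0.00232) and gene11670 at 0.56 (standard error 0.17, adjusted p = 0.0223). In gene15704 the levels were 11.4, 10.5, 9.28 and 9.58 CPM in the mixture samples and 7.39, 7.25, 6.30 and 6.47 CPM in the T4 samples, against 12.5, 13.9, 12.0 and 12.6 CPM in the control samples, with narrow groups that did not overlap. The 20 log2 fold changes ranged from 0.28 to 1.10. The call of gene11670 was lost in 3 of 17 alternatives (adjusted p from 0.00718 to 0.0684). Of the abundant members described above, gene39709 was also called higher, at 0.41 (standard error 0.08, adjusted p = 0.00179), as was gene47955, at 0.39 (standard error 0.14, adjusted p = 0.0425), whose call was lost in 10 of 17 alternatives (adjusted p from 0.00184 to 0.137). Mixture sample 5 of gene47955 lay as low as the T4 samples.

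The 4 members lower after the mixture than after T4 were gene292, gene17529, gene8071 and gene5752. In gene292 the levels were 5.47, 3.62, 4.27 and 4.02 CPM in the mixture samples and 6.31, 6.41, 5.87 and 7.80 CPM in the T4 samples, against 9.48, 9.37, 8.46 and 9.40 CPM in the control samples, and the log2 fold change of the mixture over T4 was −0.61 (standard error 0.16, adjusted p = 0.00868). In gene17529 they were 14.0, 17.2, 12.6 and 13.1 CPM in the mixture samples and 21.0, 18.9, 19.4 and 18.9 CPM in the T4 samples, against 24.4, 28.9, 26.3 and 28.9 CPM in the control samples, with a log2 fold change of −0.47 (standard error 0.10, adjusted p = 0.00345). In both genes the 3 groups formed 3 separate ranges, with the mixture lowest. In gene8071 the levels were 6.72, 8.16, 5.94 and 8.13 CPM in the mixture samples and 9.28, 9.80, 9.93 and 9.49 CPM in the T4 samples, against 14.5, 10.3, 15.5 and 15.1 CPM in the control samples, with a log2 fold change of −0.42 (standard error 0.15, adjusted p = 0.0448). In gene5752 they were 5.57, 5.28, 5.39 and 4.79 CPM in the mixture samples and 6.13, 6.03, 7.51 and 7.71 CPM in the T4 samples, against 9.57, 12.2, 10.6 and 11.4 CPM in the control samples, with a log2 fold change of −0.39 (standard error 0.14, adjusted p = 0.0416). The mixture samples of both genes lay below all T4 samples. The call was lost in 10 of 17 alternatives for gene8071 and in 11 of 17 for gene5752 (adjusted p from 0.0181 to 0.129 and from 0.0378 to 0.113), and in 0 of 17 for gene292 and gene17529.

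**Figure D5:**
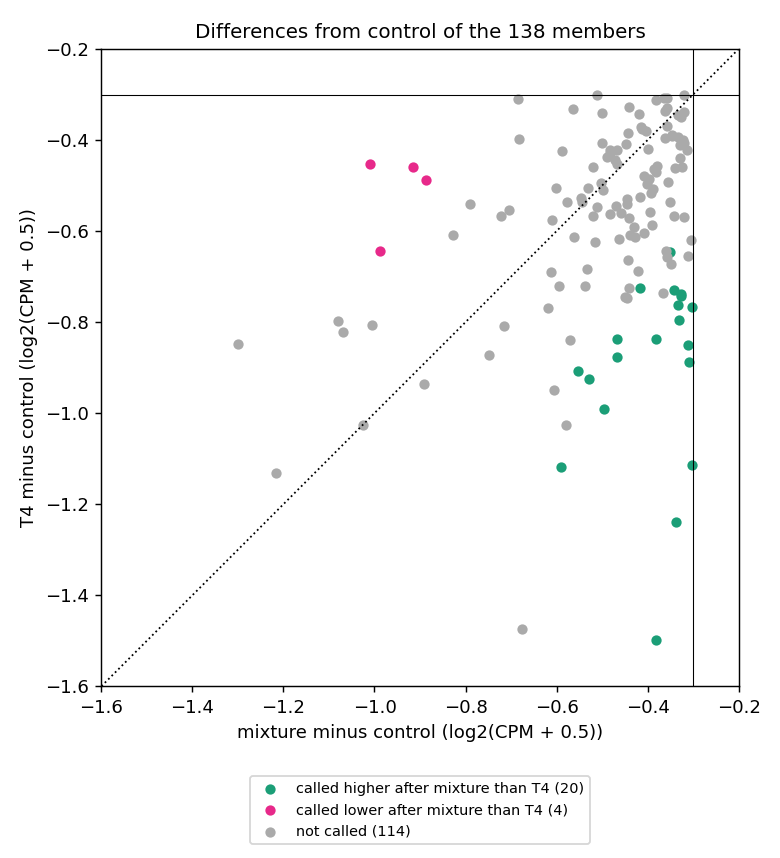
Difference from the control after the mixture (horizontal axis) and after T4 (vertical axis), both on the log2(CPM + 0.5) scale, for each of the 138 members. The solid lines mark the limit of −0.3 and the dotted line equal differences; colours give the call of edgeR between the exposures, with 20 members called higher and 4 called lower after the mixture than after T4, and 114 not called.

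Against the control, contrasts that the selection used, edgeR called 114 members lower after T4 (82.6%, against 9.54% of all genes tested) and 18 lower after the mixture (background 0.479%). Nothing is read from these shares. Of the 18, 17 were called after both exposures, and 23 members were called after neither. The count of 18 depended on single samples: it was 6, 2, 1 and 1 without control samples 1 to 4, 11, 8, 1 and 1 without mixture samples 5 to 8, and 10 to 12 without a T4 sample. With DESeq2 it was 62, and with component 2 scores as a covariate 58. The fit that gave 18 held no term for the 2 sets. The T4 count ranged from 93 to 116 without 1 sample.

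Of the members called after both exposures, the 6 with the smallest p-values are described as well, a ranking that favours groups of little spread. In gene8377 the levels were 13.1, 13.8, 13.1 and 13.5 CPM in the mixture samples and 17.3, 15.7, 12.0 and 15.3 CPM in the T4 samples, against 23.7, 21.2, 23.2 and 21.5 CPM in the control samples. The 4 mixture samples of this gene lay within 13.1 to 13.8 CPM. In gene4448 the levels were 26.2, 23.5, 20.1 and 22.1 CPM in the mixture samples and 24.2, 20.9, 24.8 and 24.4 CPM in the T4 samples, against 36.4, 34.2, 33.5 and 33.4 CPM in the control samples. In gene19902 they were 36.9, 38.3, 37.1 and 34.0 CPM in the mixture samples and 35.5, 41.6, 35.8 and 39.99 CPM in the T4 samples, against 50.5, 51.5, 54.5 and 48.8 CPM in the control samples. In these 3 genes the mixture and T4 samples overlapped, and the lowest control sample stood clear of both. The difference from the control was −0.72 after the mixture and −0.57 after T4 in gene8377. It was −0.58 and −0.54 in gene4448, and −0.48 and −0.42 in gene19902. The members gene17529, gene8071 and gene5752, lower after the mixture than after T4, also ranked among these first 6. Over the 17 members called after both exposures, the log2 fold changes ranged from −1.29 to −0.37 for the mixture and from −1.16 to −0.31 for T4.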

How the data were processed

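The authors removed duplicate reads, trimmed the rest, kept reads of 1 length (cutadapt version 1.15), mapped them with Bowtie2 (version 2.2.4) to the X. laevis genome, retained unique hits and counted them on genes with HTSeq (version 0.9.1) in union mode. The deposited values are these counts, not normalised, for 51041 genes and 5 totals that name no gene. The totals held 38.3% to 42.2% of reads and were left out. The libraries were stranded, but the strand setting of the counting is not given in the sources used here, so genes that overlap on opposite strands are uncertain. No samples of a group were copies (chi-square per degree of freedom 3.14 to 7.30 over 18 pairs).

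CPM were computed with plain library sizes, in which 3 counts, the floor, correspond to at most 0.288 CPM. Calls between groups came from 1 edgeR (version 4.0.16, R version 4.3.3) quasi-likelihood fit of all 12 samples, with TMM, filterByExpr (minimum count 10) and an adjusted p-value under 0.05. This fit held no term for the 2 sets on component 2. The authors described a batch effect on component 2 of their own PCA and removed that component before testing. Standard errors are the fitted log2 fold change divided by the square root of its F statistic. Component 2 was taken from a PCA on the variance stabilised counts of DESeq2 (version 1.42.0) and held 19.9% of the variance. The fits were tested on simulated data, for the contrast of the mixture over T4 only. The simulation held no difference between the 2 sets on component 2, and it does not bear on the contrasts against the control. Group comparisons against the control are descriptive, because the selection used them. Gene and marker lists planned for brain cell types and thyroid hormone targets could not be used without gene names, and 0 sample columns were left unused. Alternatives were DESeq2, RLE factors, no filter, fewer samples, a component 2 covariate, other limits of the selection and leaving out each sample. The count of raised genes under other limits was an alternative chosen after seeing the data.

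The members, and the choice of comparisons, were made with earlier results of these data known. Genes described by name were the 10 members with the lowest sum of differences, the 6 with the highest control level, up to 6 called in each direction between the exposures with the largest change, those 3 nearest to the limit on each side, and the 6 called against the control with the smallest p-values. Figures were drawn with matplotlib (version 3.10.9, Python version 3.11.15).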

Additional observations from a re-analysis of the deposited data

Results flagged for a closer look

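In 90 groups of 4 samples (29 named members and the summed level of all members, in 3 groups each), 6 held a sample that stood apart from the others by more than Dixon's critical gap for 4 samples. Chance flags about 1 group in 20, so this number is near what chance gives. Mixture sample 7 had 42.1 CPM of gene39709, against 48.8 to 49.8 CPM in the other mixture samples. T4 sample 12 had 46.5 CPM of gene47955 (37.3 to 38.0 CPM in the others), T4 sample 11 had 38.5 CPM of gene42738 (50.9 to 52.4 CPM) and T4 sample 10 had 20.9 CPM of gene4448 (24.2 to 24.8 CPM). Control sample 1 had 8.39 CPM of gene18690 (10.6 to 10.7 CPM) and control sample 3 had 8.46 CPM of gene292 (9.37 to 9.48 CPM).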

How the results depend on the processing

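The 138 lowered genes became 54 with a minimum control level of 20 CPM, 249 with a limit of −0.2 and 36 with a limit of −0.5, and the 13 raised genes became 4, 38 and 0. With TMM scaling they were 93 and 19, with a pseudocount of 2, 116 and 11, and with a minimum of 1 CPM, 172 and 18. Without 1 sample they were 146 to 225 and 12 to 45, the highest of both without control sample 2. Of the members called lower after the mixture than after T4, 2 were left with DESeq2 and 2 with no filter on low counts, and 2 to 5 without 1 sample (2 without control sample 4 or mixture sample 5 or 7). The 20 called higher were 17 to 22 under the other alternatives and 14 to 20 without 1 sample. The members called lower after the mixture than in the control were 62 with DESeq2, 58 with component 2 scores as a covariate and 1 to 12 without 1 sample. The cause of these changes was not tested, other than that stricter limits leave fewer genes. Leaving out a sample also loosens the condition that separates exposed from control samples. The sample numbers run from 1 to 12 with none shared between groups, so no block by number was fitted. The labels give no breeding for a sample, and component 2 scores were the only covariate fitted.

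Among the 29 named members, the log2 fold change of the mixture over T4 changed sign in 15 fits, all in genes not called, and kept its direction and side of the threshold in 438, while 38 fits lost a call and 2 gained one. Without 1 sample it ranged from −0.10 to 0.068 in gene16239, from −0.049 to 0.15 in gene39362, from −0.014 to 0.049 in gene36962, from −0.11 to 0.056 in gene40842 and from −0.12 to 0.0098 in gene4448. The floor of 3 counts corresponded to 0.257 to 0.288 CPM, depending on the sample.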
